A study of Mus musculus with 9 samples.

Results

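The genes described here are 45 genes of protein folding in the endoplasmic reticulum (ER) and of the unfolded protein response. They were taken by symbol from the 46517 genes of the deposited table, and each of the 45 symbols was found there. They comprise 12 chaperones and co-chaperones, 8 disulfide and prolyl isomerases, 12 genes of translocation into the ER, 8 genes of ER-associated degradation and 5 stress sensors or transcription factors. Total RNA of aged C57BL/6 mice, each over 18 months old, was sequenced in 9 libraries. Wild-type mice gave 3 spleens, numbered 1, 4 and 5. plckGAPDH mice gave 4 spleens, 3 from animals 343, 508 and 547 and 1 whose column carries no animal number. They also gave 2 lymph nodes, from animals 455 and 508. The unnumbered spleen was treated as a separate animal, which the labels do not state. In plckGAPDH mice the Lck promoter, a promoter of the T lineage, drives a Gapdh transgene, and the labels describe these mice as developing tumours. The protocol names splenocytes as the source of RNA, also for the lymph nodes. Spleen 508 and lymph node 508 come from the same mouse and are not independent of each other. P-values measure the spread between these libraries.

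The ER is where secreted and membrane proteins, antibodies among them, enter the secretory pathway and fold. When unfolded proteins build up there, the membrane sensors Ern1 (IRE1), Eif2ak3 (PERK) and Atf6 start the unfolded protein response. The response raises transcription of chaperones, of the translocation machinery and of the system that sends misfolded proteins back to the cytosol for degradation. In the lymphoid organs, plasma cells are known for a large ER and for high expression of these genes, because they secrete immunoglobulin.

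Levels are in FPKM, a count of fragments scaled to the length of the gene and to the total of the library. The 45 genes stood high in 4 libraries, plckGAPDH spleens 508 and 547 and both lymph nodes, and low in plckGAPDH spleen 343. In spleen 508 the median gene of the 45 was at 3.67 times its wild-type mean, and 40 genes lay above every wild-type spleen. Spleen 547 had a median ratio of 2.43 with 42 genes above every wild-type spleen, and the unnumbered spleen had 1.46 with 32 genes. Lymph node 455 had a median ratio of 2.83 with 41 genes above, and lymph node 508 had 2.40 with 37. Spleen 343 went the other way, at a median ratio of 0.707, with 24 genes below every wild-type spleen and 3 above. Over the 12607 genes expressed in the spleens, the median ratio was 0.674 in spleen 508, 1.26 in spleen 547, 1.11 in the unnumbered spleen, 0.888 in spleen 343, 0.648 in lymph node 455 and 0.467 in lymph node 508. Of these 12607 genes, 45.8% exceeded every wild-type spleen for library 547, and 33.4% did so for the unnumbered library. The same share was 14.1% for spleen 508, 16.4% for spleen 343, 11.3% for lymph node 455 and 7.91% for lymph node 508. No share over all genes is given for genes below every wild-type spleen. The wild-type spleens themselves had median ratios of 1.08, 0.778 and 1.10 for the 45 genes.

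**Figure D1:**
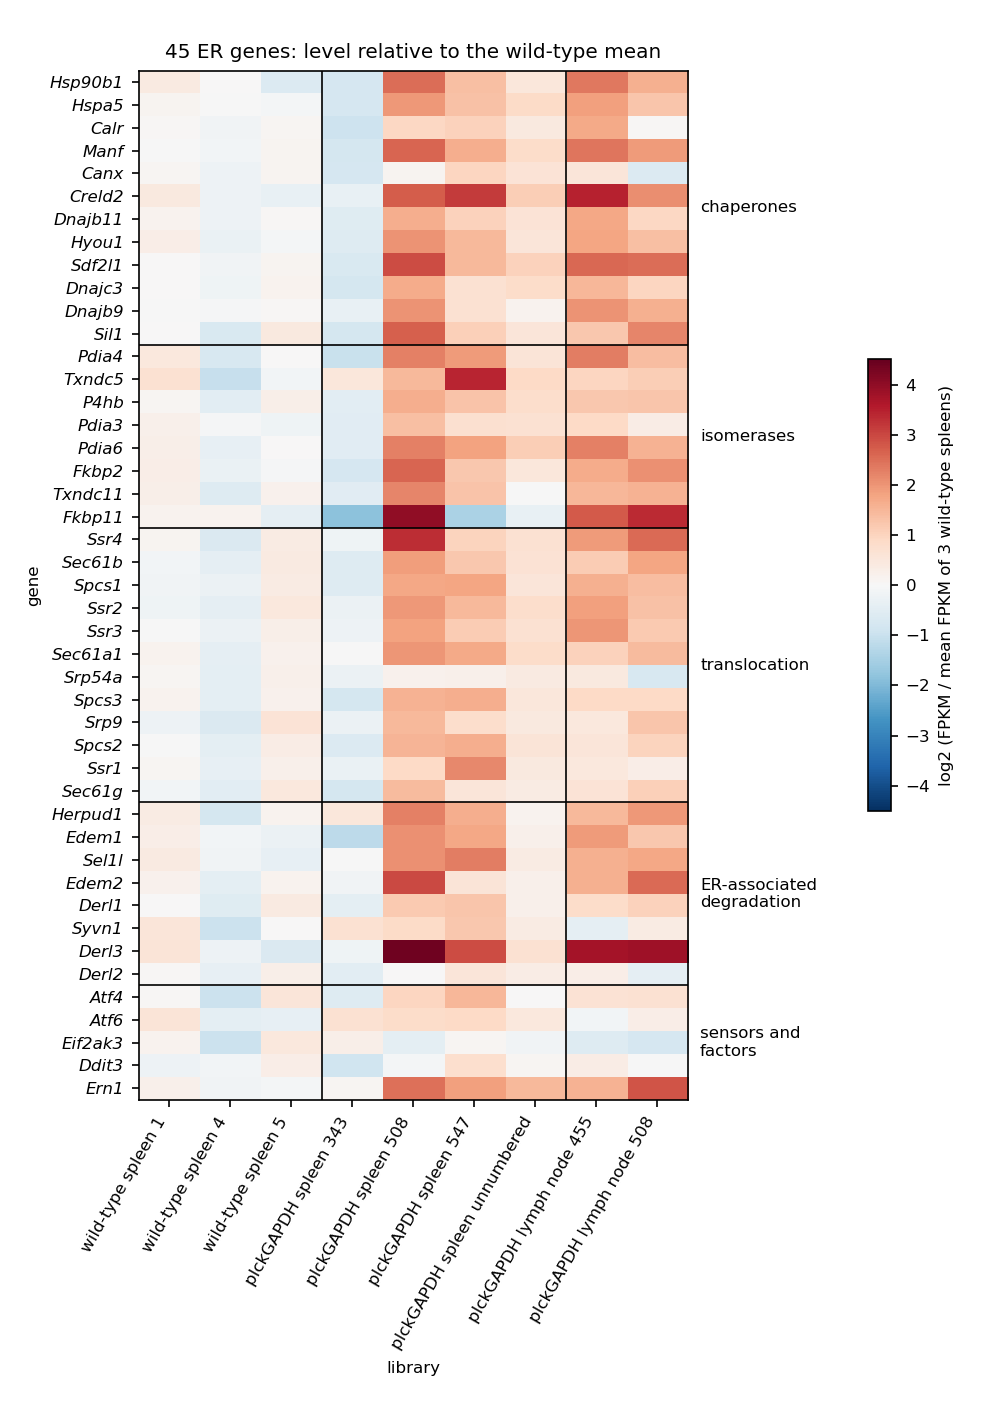
Level of each of the 45 genes (rows, grouped by role) in each of the 9 libraries (columns), as log2 of FPKM over the mean FPKM of the 3 wild-type spleens; red is higher and blue lower. plckGAPDH spleens 508 and 547 and both lymph nodes are mostly red, with median ratios of 3.67, 2.43, 2.83 and 2.40, and spleen 343 is mostly blue, with a median ratio of 0.707.

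The libraries differed in ways that touch these levels. The depth estimated from low FPKM ran from 23700000 fragments (spleen 508) to 34700000 (spleen 547). Mitochondrial ribosomal RNA took 23.7% to 53.5% of the fragments of the wild-type spleens and 24.8% to 51.7% of the others. Rn7s1 and Rn7s2, 7SL RNA of the signal recognition particle, were listed with equal values of 540720 FPKM each in spleen 508 and 745736 FPKM in lymph node 508, against 88550 to 283094 FPKM in the other 7 libraries. When FPKM was rescaled to the sum outside receptor and mitochondrial genes, which 7SL RNA dominates, lymph node 508 had a median ratio of 1.05 and spleen 508 of 1.79. With median-of-ratios scaling these medians were 4.98 and 5.19. Spleen 343 was then at 0.762, under each wild-type spleen, with 27 genes below every wild-type spleen and 6 above. With scaling to protein-coding genes, chosen after seeing the data, spleen 343 was at 0.963, with 4 genes below and 10 above. Outside receptor and mitochondrial genes it was at 0.912, with 7 below and 7 above. In both of these scalings spleen 343 lay within the wild-type range, with wild-type spleen 5 lower, at 0.705 and 0.678. No share over all genes is given for the counts of genes below and above after rescaling. None of the 6 markers of B cells or of T cells was at 0 in any library. Gapdh itself was at 299 to 348 FPKM in wild-type spleens, 430 to 894 FPKM in plckGAPDH spleens, and 554 and 312 FPKM in lymph nodes 455 and 508. Wild-type spleen 5 stood apart in Xist, at 0.0900 FPKM against 31.2 to 59.7 FPKM in the other 8 libraries, and in the haemoglobin gene Hbb-bs, at 33216 FPKM against 808 FPKM at most elsewhere. Wild-type spleen 4 stood apart in its 6 neutrophil markers, which summed to 3.59 FPKM against 470 to 2999 FPKM in the other spleens. Its 6 B cell markers summed to 400 FPKM, against 1682 and 1721 FPKM in wild-type spleens 1 and 5. Ighg1 was at 2165 FPKM in wild-type spleen 4, against 8 and 24.5 FPKM in those 2. Of the 7 spleens, wild-type spleen 4 was lowest for 18 of the 45 genes and spleen 343 for 24, with no share over all genes given.

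The promoters show what some of these genes share in sequence. The ER stress element (ERSE) is a site through which Atf6 and Xbp1, with the factor NF-Y, are known to act, and it reads CCAAT, 9 bases of any kind, CCACG. It was searched on both strands in RefSeq windows (GRCm38.p6) from 250 bases before to 50 after each gene's start, which 37 of the 45 genes had. The 8 others, Sec61a1, Ssr2, Manf, Hyou1, Derl1, Atf6, Spcs3 and Sil1, have no window in the table used. ERSE was found in 9 of the 37 genes (24.3%), namely Calr, Canx, Creld2, Derl3, Dnajc3, Hsp90b1, Hspa5, Pdia6 and Syvn1, and in 0.137% of the 27025 genes with a window. ERSE-II (ATTGG, 1 base, CCACG) was found in 2 genes, Dnajb11 and Herpud1 (5.41%, against 0.0444% of all genes). The UPRE core TGACGTGG was found in Txndc5 and Txndc11 (against 0.714% of all genes), and the CHOP-ATF4 core (TGATGCAA or TGATGAAA) in Herpud1 and Txndc5 (against 2.16%). ERSE and ERSE-II share the letters CCACG and, on opposite strands, CCAAT, but no 2 matches overlapped in these windows. A match is a description of letters and was not tested for binding.

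The stretches printed here were chosen because they carry the matches of 5 genes with high values in plckGAPDH spleens 508 and 547 and both lymph nodes. Capitals mark the motif letters on either strand. Hspa5 (chr2:34772020-34772049, plus strand) is shown only around its ERSE, which begins 65 bases before the RefSeq start and lies inside the gene as GENCODE annotates it. Hsp90b1 (chr10:86705510-86705694, minus strand) has 2 copies on opposite strands, 212 and 107 bases before the start. The stretches of Creld2 (chr15:88819396-88819645, plus strand), Derl3 (chr10:75893148-75893397, plus strand) and Herpud1 (chr8:94386179-94386428, plus strand) end at the base before the RefSeq start. Creld2 and Derl3 hold the ERSE on the reverse strand, so that it reads CGTGG, 9 bases, ATTGG, and Herpud1 holds a reverse CHOP-ATF4 core and an ERSE-II.
Hspa5: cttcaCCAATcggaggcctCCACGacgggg
Hsp90b1: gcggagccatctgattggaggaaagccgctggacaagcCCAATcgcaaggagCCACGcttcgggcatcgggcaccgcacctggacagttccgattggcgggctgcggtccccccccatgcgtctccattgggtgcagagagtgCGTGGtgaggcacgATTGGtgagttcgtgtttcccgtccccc
Creld2: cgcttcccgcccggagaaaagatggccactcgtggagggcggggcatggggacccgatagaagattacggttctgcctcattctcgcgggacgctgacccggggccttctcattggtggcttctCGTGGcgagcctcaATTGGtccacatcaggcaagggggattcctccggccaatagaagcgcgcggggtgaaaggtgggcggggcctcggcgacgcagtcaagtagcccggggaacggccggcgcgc
Derl3: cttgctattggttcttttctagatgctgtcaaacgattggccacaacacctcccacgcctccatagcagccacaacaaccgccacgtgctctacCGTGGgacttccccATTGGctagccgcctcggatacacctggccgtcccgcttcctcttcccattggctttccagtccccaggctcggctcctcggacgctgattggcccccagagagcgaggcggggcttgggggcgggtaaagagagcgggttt
Herpud1: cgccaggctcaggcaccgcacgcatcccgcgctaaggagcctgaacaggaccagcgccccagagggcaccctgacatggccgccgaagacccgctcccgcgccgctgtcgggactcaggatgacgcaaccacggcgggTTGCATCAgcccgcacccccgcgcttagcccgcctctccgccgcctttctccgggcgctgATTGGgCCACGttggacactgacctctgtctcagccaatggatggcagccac

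Levels of the 9 genes with an ERSE match can be set beside those of the 28 genes with a window and no ERSE match. Among the 28 are Dnajb11, Herpud1, Txndc5 and Txndc11, which hold other motifs of the search. The median ratio to the wild-type mean was 3.83 with the match and 3.42 without in spleen 508, and 2.51 and 2.33 in spleen 547. In lymph nodes 455 and 508 it was 3.58 against 2.77 and 2.40 against 2.38. In spleen 343 it was 0.595 with the match and 0.713 without, and in the unnumbered spleen 1.6 and 1.35. The wild-type spleens had 1.21, 0.848 and 1.01 with the match and 1.08, 0.762 and 1.15 without. These medians are descriptions of 9 and 28 genes in single libraries.

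**Figure D2:**
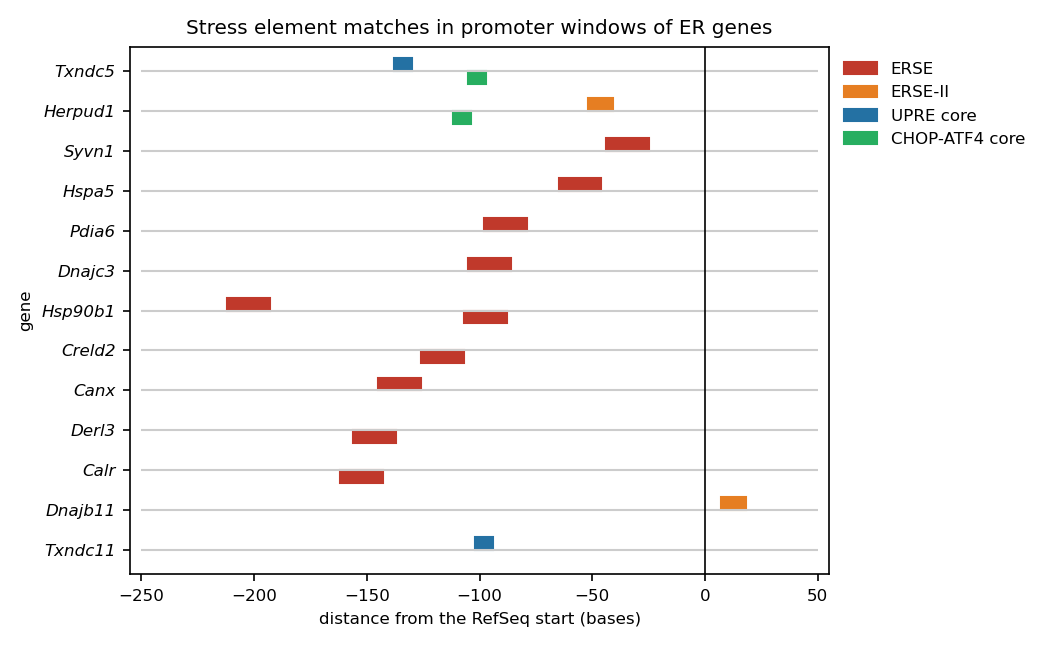
Positions of the 4 motifs in promoter windows of the 13 genes with a match, by distance in bases from the RefSeq start (line at 0); boxes above a gene's line are on the gene's strand and boxes below it on the opposite strand. ERSE matches (red) of 9 genes lie before the start, Hsp90b1 has 2, and the matches of Txndc5 come from windows of 2 starts.

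In what follows, values are listed in the order wild-type spleens 1, 4 and 5, plckGAPDH spleens 343, 508, 547 and unnumbered, and lymph nodes 455 and 508. The chaperones had a median ratio to the wild-type mean of 4.09 in spleen 508, 2.31 in spleen 547, 1.52 in the unnumbered spleen, 3.49 in lymph node 455 and 2.80 in lymph node 508. In spleen 343 the ratio was 0.593, and 11 of the 12 chaperones lay below every wild-type spleen. No share over all genes is given for that count.

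Hspa5 (chr2:34771970-34777547), the Hsp70 chaperone BiP that also holds the sensors inactive, was at 141, 129 and 122 FPKM in the wild-type spleens, 77.6, 500.3, 328 and 237 FPKM in the plckGAPDH spleens, and 467 and 313 FPKM in the lymph nodes. The 3 wild-type spleens lay close together, spleen 343 lay below them and every other transgenic library above them. Hsp90b1 (chr10:86690209-86705509), the ER form of Hsp90, was at 207, 159.7 and 102 FPKM in the wild-type spleens, 92.1, 888, 399 and 221 FPKM in the plckGAPDH spleens, and 817 and 474 FPKM in the lymph nodes. Its highest library was spleen 508, and the unnumbered spleen lay only just above wild-type spleen 1.

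Dnajb9 (ERdj4), a co-chaperone of BiP, was at 10.2, 9.78 and 10.8 FPKM in the wild-type spleens, 8.12, 42.1, 16.5 and 11.4 FPKM in the plckGAPDH spleens, and 41.7 and 31.1 FPKM in the lymph nodes. Spleen 508 and both lymph nodes stood above all other libraries, and spleen 343 stood below them. Sdf2l1, a partner of ER co-chaperones, was at 13.9, 12.1 and 14.8 FPKM in the wild-type spleens, 8.44, 104, 36.9 and 28.2 FPKM in the plckGAPDH spleens, and 81.7 and 77.3 FPKM in the lymph nodes. The same order held, with the unnumbered spleen already above each wild-type spleen.

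Creld2, an ER protein known to be induced by ER stress, was at 21.9, 13.6 and 12.7 FPKM in the wild-type spleens, 12.7, 107, 141 and 34.6 FPKM in the plckGAPDH spleens, and 176 and 68.6 FPKM in the lymph nodes. It was highest in lymph node 455 and, among the spleens, in 547, while spleen 343 fell within the wild-type range. Sil1, the nucleotide exchange factor of BiP, was at 5.72, 3.44 and 7.60 FPKM in the wild-type spleens, 3.25, 35.7, 11.8 and 8.19 FPKM in the plckGAPDH spleens, and 13.0 and 25.6 FPKM in the lymph nodes. Spleen 508 and lymph node 508 were highest, and the other lymph node lay close to spleen 547. Of the chaperones not listed by library, Hyou1 (a large Hsp70-related chaperone), Manf (a stress-induced ER factor), Dnajb11 and Dnajc3 had ratios of 3.10 to 6.09 in spleen 508. The lectin chaperones Calr and Canx, which hold glycoproteins during folding, were at only 1.93 and 1.09 there. Canx was also the only chaperone of lymph node 508 below the wild-type spleens, at a ratio of 0.652.

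The isomerases make and reshuffle disulfide bonds or turn proline bonds. Their median ratio was 4.70 in spleen 508, 2.43 in spleen 547, 1.55 in the unnumbered spleen, 0.704 in spleen 343, and 3.01 and 2.78 in lymph nodes 455 and 508. Pdia4, a disulfide isomerase, was at 109, 48.3 and 80.3 FPKM in the wild-type spleens, 39.6, 386, 301 and 119 FPKM in the plckGAPDH spleens, and 389 and 207 FPKM in the lymph nodes. Spleen 343 lay below each wild-type spleen, and every other transgenic library lay above them. Txndc5 (chr13:38500079-38528824), another disulfide isomerase of the ER, was at 83.8, 25.6 and 48.0 FPKM in the wild-type spleens, 74.4, 145, 562 and 97.9 FPKM in the plckGAPDH spleens, and 103 and 112 FPKM in the lymph nodes. Spleen 547 held several times the level of any other library, and spleen 343 lay within the wild-type range.

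Fkbp11 (chr15:98724366-98728198), a prolyl isomerase known from secretory cells, was at 3.40, 3.44 and 2.34 FPKM in the wild-type spleens, 0.860, 48.8, 1.13 and 2.45 FPKM in the plckGAPDH spleens, and 20.9 and 31.7 FPKM in the lymph nodes. It was high only in spleen 508 and the lymph nodes, and spleens 343 and 547 lay below every wild-type spleen. Fkbp2, a prolyl isomerase of the ER lumen, was at 17.5, 11.5 and 13.7 FPKM in the wild-type spleens, 8.37, 88.3, 32.9 and 20.1 FPKM in the plckGAPDH spleens, and 45.8 and 58.9 FPKM in the lymph nodes. Here spleen 547 was above the wild-type spleens, and the order of the 3 highest libraries was the same as for Fkbp11 in that spleen 508 led, then lymph node 508, then lymph node 455. The other isomerases, P4hb, Pdia3, Pdia6 and Txndc11, had ratios of 2.56 to 4.80 in spleen 508 and 1.65 to 3.49 in spleen 547.

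Translocation genes pull nascent chains into the ER, and they include the Sec61 channel, the translocon-associated proteins Ssr1 to Ssr4, the signal peptidase subunits Spcs1 to Spcs3, and Srp9 and Srp54a of the signal recognition particle. Their median ratio was 3.16 in spleen 508, 2.55 in spleen 547, 1.49 in the unnumbered spleen, 0.821 in spleen 343, and 1.95 and 2.32 in lymph nodes 455 and 508. Ssr4 (chrX:73787028-73790830) was at 48.6, 28.8 and 57.5 FPKM in the wild-type spleens, 39.0, 446, 90.4 and 71.9 FPKM in the plckGAPDH spleens, and 168 and 264 FPKM in the lymph nodes. Spleen 508 was far above the other plckGAPDH spleens, and the lymph nodes followed. Sec61b, the small beta subunit of the channel, was at 60.5, 49.2 and 88.1 FPKM in the wild-type spleens, 43.8, 242, 154 and 104 FPKM in the plckGAPDH spleens, and 145 and 225 FPKM in the lymph nodes. Spleen 343 lay below every wild-type spleen.

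Sec61a1, the pore subunit, was at 31.4, 21.4 and 32.1 FPKM in the wild-type spleens, 27.9, 112, 91.7 and 50.1 FPKM in the plckGAPDH spleens, and 57.5 and 75.2 FPKM in the lymph nodes. Spleen 343 lay within the wild-type range and the 5 other transgenic libraries above it. Ssr1 departed from the other Ssr genes, with a ratio of 4.47 in spleen 547 against 1.88 in spleen 508. Srp54a had the smallest ratio of the 12 in spleen 508 (1.15), and near-identical copies of this gene could share its fragments, so its level is uncertain. The other translocation genes, Sec61g, Ssr2, Ssr3, Spcs1, Spcs2, Spcs3 and Srp9, had ratios of 2.65 to 3.85 in spleen 508.

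Genes of ER-associated degradation had a median ratio of 4.20 in spleen 508, 2.75 in spleen 547, 1.23 in the unnumbered spleen, 0.893 in spleen 343, and 2.88 and 2.82 in lymph nodes 455 and 508. Derl3 (chr10:75893413-75895941), a derlin of the membrane complex that exports misfolded proteins, was at 6.42, 3.61 and 2.74 FPKM in the wild-type spleens, 3.76, 88.4, 32.8 and 6.80 FPKM in the plckGAPDH spleens, and 57.0 and 59.2 FPKM in the lymph nodes. Its ratio to the wild-type mean was 20.8 in spleen 508, the largest of the 45 genes there. Derl1 and Derl2, of the same family, were at ratios of only 2.27 and 1.02 in that spleen.

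Edem2 (chr2:155701677-155729475), which starts the trimming of mannose from misfolded glycoproteins, was at 15.6, 10.2 and 15.4 FPKM in the wild-type spleens, 12.4, 109, 20.5 and 16.2 FPKM in the plckGAPDH spleens, and 41.3 and 80.3 FPKM in the lymph nodes. Spleen 547 was only slightly above the wild-type spleens, whereas spleen 508 and the lymph nodes were far above. Edem1, which acts in the same trimming, was at 51.6, 38.6 and 34.5 FPKM in the wild-type spleens, 18.5, 175, 138 and 48.8 FPKM in the plckGAPDH spleens, and 157 and 97.0 FPKM in the lymph nodes. For this gene spleen 547 followed spleen 508 among the spleens, and spleen 343 was below every wild-type spleen.

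Herpud1, a scaffold of the degradation complex, was at 64.4, 28.5 and 55.4 FPKM in the wild-type spleens, 70.5, 236, 153 and 54.6 FPKM in the plckGAPDH spleens, and 136 and 192 FPKM in the lymph nodes. Spleen 343 lay just above wild-type spleen 1, and the unnumbered spleen lay within the wild-type range. Syvn1 (Hrd1), the ubiquitin ligase of the complex, was at 22.2, 7.79 and 15.3 FPKM in the wild-type spleens, 24.5, 27.1, 34.7 and 19.7 FPKM in the plckGAPDH spleens, and 11.5 and 19.2 FPKM in the lymph nodes. Both lymph nodes lay below each plckGAPDH spleen. Sel1l, its partner, had ratios of 4.21 in spleen 508 and 4.98 in spleen 547.

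The 5 sensors and factors had the smallest median ratios of the role groups in spleens 508 and 547, at 1.77 and 1.88. In the lymph nodes they were at 1.26 (455) and 1.22 (508). Ern1 (chr11:106394650-106487852), the sensor that splices Xbp1 RNA, was at 3.11, 2.37 and 2.5 FPKM in the wild-type spleens, 2.82, 14.8, 9.50 and 7.29 FPKM in the plckGAPDH spleens, and 7.95 and 18.9 FPKM in the lymph nodes. Spleen 343 lay within the narrow wild-type range, and the other transgenic libraries lay above it. Lymph node 508 exceeded the spleen of the same animal 1.28 times.

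Atf6, the sensor that is cut in the Golgi to yield a transcription factor, was at 18.7, 9.31 and 9.74 FPKM in the wild-type spleens, 20, 22.2, 23.6 and 17.7 FPKM in the plckGAPDH spleens, and 11.5 and 15.3 FPKM in the lymph nodes. The spleens of the genotypes overlapped at wild-type spleen 1. Eif2ak3, the sensor that slows translation, was at 13.7, 6.35 and 17.0 FPKM in the wild-type spleens, 14.6, 9.17, 13.1 and 11.1 FPKM in the plckGAPDH spleens, and 8.33 and 7.38 FPKM in the lymph nodes. Its highest level was that of wild-type spleen 5, and both lymph nodes lay below each plckGAPDH spleen.

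Atf4, the transcription factor translated when Eif2ak3 is active, was at 44.4, 21.4 and 61.3 FPKM in the wild-type spleens, 28.4, 81.8, 119 and 43.3 FPKM in the plckGAPDH spleens, and 66.3 and 67.8 FPKM in the lymph nodes. Spleen 547 was highest, and the unnumbered spleen lay within the wild-type range. Ddit3 (CHOP), a target of Atf4, was at 7.97, 8.61 and 11.4 FPKM in the wild-type spleens, 5.01, 8.76, 15.7 and 9.97 FPKM in the plckGAPDH spleens, and 11.8 and 9.18 FPKM in the lymph nodes. Spleen 547 was highest here too, while spleen 508 and both lymph nodes lay near the wild-type values.

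The first comparison asked whether the genotypes differed in spleen. limma on log2(FPKM + 1) over the 12607 genes and 7 spleens called 181 genes (1.44%) at a false discovery rate (FDR, Benjamini-Hochberg) under 0.05, and 0 of the 45 genes. At an unadjusted p under 0.05 there were 5 of the 45, each higher in plckGAPDH spleens, beside 8.85% of all genes in either direction. The log2 fold change was above 0 for 44 of the 45 genes (41 to 44 under 3 other scalings), with a median of 0.84 against 0.02 over all genes tested. Role medians were 0.85 for chaperones, 0.86 for isomerases, 0.81 for translocation, 0.88 for degradation and 0.59 for sensors and factors. Fold changes on this scale understate those of low genes.

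Ern1 had a log2 difference of 1.22 (SE 0.46, 95% interval 0.23 to 2.22, limma FDR 0.388). Txndc5 had 1.71 (SE 0.67, FDR 0.429), with spleen 547 at 562 FPKM and the other plckGAPDH spleens at 74.4 to 145 FPKM. For Creld2 the difference was 1.66 (SE 0.70, FDR 0.490). Derl3 showed 1.86 (SE 0.82, FDR 0.530), and spleen 343 lay within the wild-type range. Sec61a1 (1.12, SE 0.51) and Herpud1 (1.20, SE 0.56) had FDR values of 0.546 and 0.577. The most abundant chaperones had wide intervals that held 0, from -0.45 to 2.13 for Hspa5 around 0.84, and from -0.53 to 2.44 for Hsp90b1 around 0.96.

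None of the 45 genes had genotype groups that did not overlap, whereas 3.39% of all genes had every plckGAPDH spleen above every wild-type spleen and 3.88% the reverse. Spleen 343 was the lowest plckGAPDH spleen for 41 of the 45 genes, which held for 26.6% of all genes. Without it the median log2 difference was 1.25, 29 of the 45 genes lay higher without overlap (8.04% of all genes), and Creld2 passed at a log2 difference of 2.30 and a limma FDR of 0.0448, as did 2.16% of all genes. Without both 508 and 547 the median was 0.058, with 29 genes above 0. With sample quality weights Ern1 passed at 0.93 and a limma FDR of 0.0328 in a fit that called 14.8% of all genes and gave wild-type spleens 1, 4 and 5 weights of 24.8, 0.326 and 0.637.

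**Figure D3:**
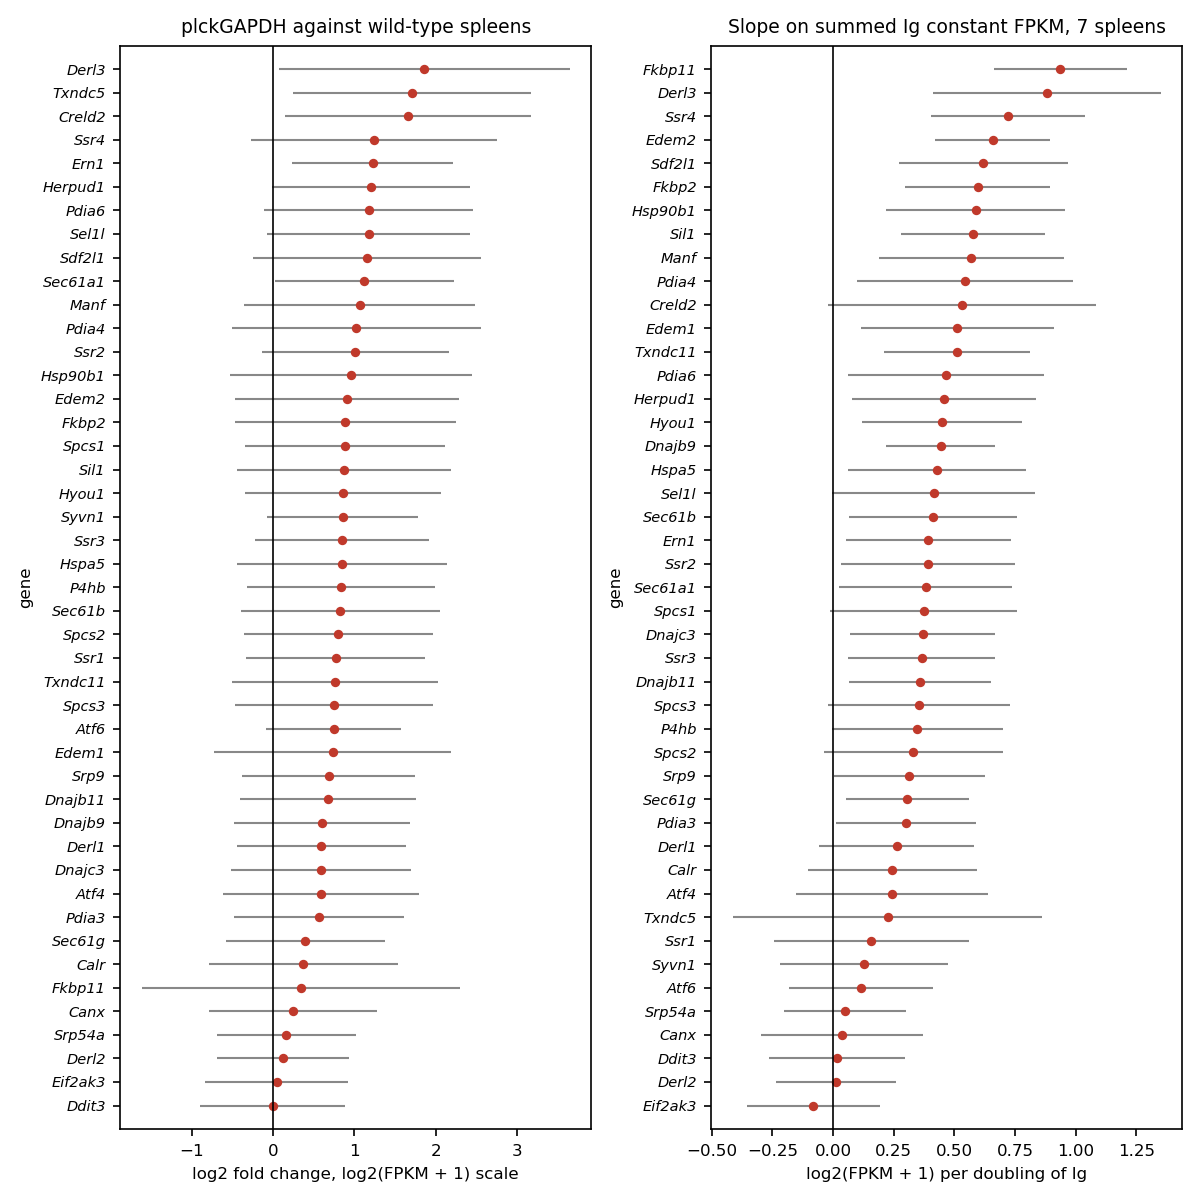
Left, log2 difference between plckGAPDH and wild-type spleens for each of the 45 genes on the log2(FPKM + 1) scale; right, slope of log2(FPKM + 1) per doubling of summed immunoglobulin constant region FPKM over the 7 spleens. Points are limma estimates and lines their 95% intervals; 44 genes lie above 0 in each panel, and none passed an FDR of 0.05.

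The plckGAPDH spleens differed widely among themselves. The SD of log2 level had a median of 0.98 over the 45 genes in plckGAPDH spleens (n = 4) and 0.34 in wild-type spleens (n = 3). Over all genes these medians were 0.52 and 0.43. The SD was larger in plckGAPDH spleens for 41 of the 45 genes, and for 60.4% of all genes.

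The 2 spleens with high levels were not alike. The ratio of spleen 508 to spleen 547 had a median of 1.40 over the 45 genes and of 0.533 over all genes. It exceeded 2 for 9 of the 45 (5.12% of all genes): Fkbp11 (43.2), Edem2, Ssr4, Sil1, Sdf2l1, Derl3, Fkbp2, Dnajb9 and Hsp90b1 (2.22). Txndc5 (0.258) and Ssr1 (0.422) were more than 2-fold higher in spleen 547.

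The second comparison set lymph nodes against spleens of plckGAPDH mice. Over 13682 genes and 9 libraries, limma called 2 genes (0.0146%), and 0 of the 45. At an unadjusted p under 0.05 there was 1 of the 45, Fkbp11, beside 11.3% of all genes. The log2 difference was above 0 for 36 genes (30 to 44 under the other scalings), with a median of 0.61 against -0.59 over all genes tested. Median-of-ratios scaling moved the median of all genes to 0.00 and that of the 45 genes to 1.37. Fkbp11 had a difference of 2.39 (SE 1.05, limma FDR 0.359), and without spleen 508 it passed at 3.48 with an FDR of 0.00404, as did 0.177% of all genes. Dnajb9 (1.12, SE 0.55), Sdf2l1 (1.31, SE 0.72) and Derl3 (1.69, SE 0.94) each had an FDR of 0.359.

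Groups did not overlap for 3 of the 45 genes, Syvn1, Atf6 and Eif2ak3, each lower in lymph nodes, which held for 30.0% of all genes. None lay higher without overlap, against 0.490% of all genes. Syvn1 had a log2 difference of -0.76 (SE 0.46) and Atf6 of -0.61 (SE 0.39), and with median-of-ratios scaling Atf6 was at 0.14. Under that scaling 3 of the 45 genes lay higher without overlap and 0 lower, beside 3.60% and 4.72% of all genes. With scaling to protein-coding genes, chosen after seeing the data, 4 lay higher and 0 lower, beside 1.82% and 5.98% of all genes. Without spleen 508, 14 of the 45 lay higher and 3 lower without overlap, beside 1.89% and 52.9% of all genes. Within animal 508 the lymph node was below the spleen for 43 of the 45 genes, at a median ratio of 0.670 against 0.693 over all genes, and summed immunoglobulin constant region FPKM had a ratio of 0.503.

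The third question was how these genes relate to immunoglobulin RNA. The FPKM of 13 constant region genes summed to 12265, 8597 and 9159 in the wild-type spleens. The sums were 6200, 166920, 11035 and 7786 in plckGAPDH spleens 343, 508, 547 and unnumbered, and 35465 and 83892 in lymph nodes 455 and 508. Spleen 508 and lymph node 508 held mostly Ighg2c and Iglc1, whereas lymph node 455 held Ighe (11647 FPKM) and Igkc (22055 FPKM). The libraries with the highest sums were spleen 508 and the lymph nodes, and spleen 547 was within the wild-type range.

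Over the 7 spleens, limma called 4 of 12594 genes (0.0318%) for a slope on the log2 sum, and 0 of the 45. At an unadjusted p under 0.05 there were 27 of the 45, each with a positive slope, beside 8.83% of all genes, and without spleen 508 there was 1, beside 1.93%. The slope was above 0 for 44 genes (35 to 45 under the other scalings), with a median of 0.38 log2 units per doubling of the sum against -0.10 over all genes. It was 0.94 for Fkbp11 (SE 0.12, limma FDR 0.0583), 0.66 for Edem2 (SE 0.11, FDR 0.136) and 0.72 for Ssr4 (SE 0.14, FDR 0.233). Slopes of 0.60 for Fkbp2, 0.44 for Dnajb9 and 0.58 for Sil1 had limma FDR values of 0.288, 0.297 and 0.297. The sensors and factors had the smallest median slope, at 0.11, and Eif2ak3 alone had a slope under 0 (-0.08). Of the 6 genes with the smallest p, 5 had a promoter window and none of these held any of the 4 motifs.

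Over all 9 libraries, in which the spleen and lymph node of animal 508 enter as if they were independent, 11 of the 45 genes had a positive slope past the threshold (0.772% of all genes). These were Fkbp11 (slope 1.01, limma FDR 0.00233), Edem2, Ssr4, Fkbp2, Sil1, Derl3, Sdf2l1, Dnajb9, Txndc11, Hsp90b1 and Manf. For 14 of the 45 genes spleen 508 and both lymph nodes lay above each of the other 6 libraries, which held for 0.777% of all genes. They were the 11 just named with Dnajc3, Ssr3 and Sec61g. Without either library of animal 508, an alternative added after seeing the data, 0 of the 45 genes passed, with a smallest limma FDR of 0.867 and a median slope of 0.68. Among the 7 spleens Fkbp11 passed with genotype as a second term (slope 0.97, limma FDR 0.0126), and without spleen 508 its slope in the fit with no such term was 0.64, at a limma FDR of 0.997.

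**Figure D4:**
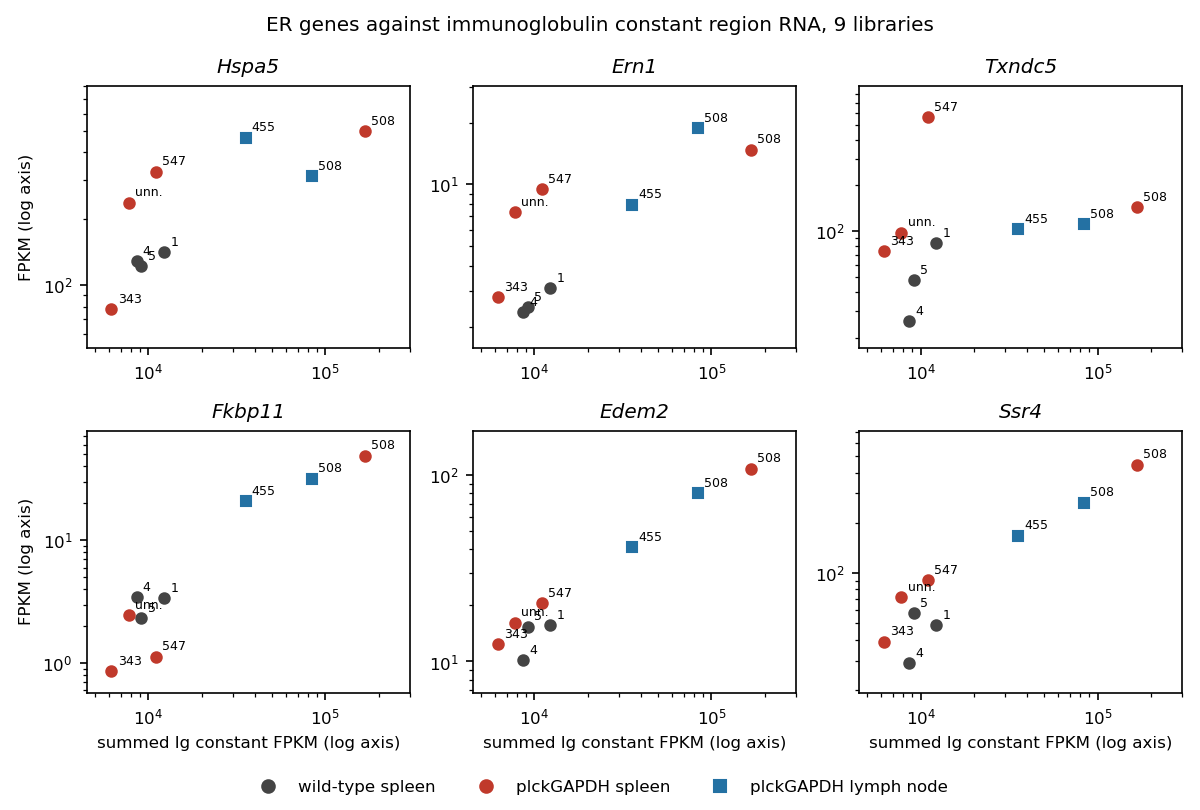
Level of 6 of the genes (FPKM, log axis) against summed FPKM of 13 immunoglobulin constant region genes (log axis), 1 point per library, labelled by its number (unn., unnumbered spleen). Fkbp11, Edem2 and Ssr4 follow the sum in spleen 508 and the lymph nodes, whereas Hspa5, Ern1 and above all Txndc5 are also high in spleen 547, whose sum of 11035 FPKM is within the wild-type range.

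Spleen 508 stood alone on the axis of immunoglobulin RNA, so no correlation over all spleens is given. Within the 6 other spleens Pearson's r was positive for each of the 45 genes, with a median of 0.485, and it was positive for 74.1% of all genes, with a median of 0.254. None of the 45 reached an unadjusted exact permutation p (two-sided) under 0.05, and the smallest adjusted p over 12594 genes was 0.996. With 6 spleens this permutation test cannot give a p under 0.00139. The values adjusted over so many genes therefore cannot decide whether a relation exists. Edem1 had an r of 0.73 (Spearman's rho 0.71, exact permutation p 0.103 and 0.136, adjusted 0.996 and 0.959), and r was 0.77 without the 2 spleens farthest from the median. Fkbp11 had an r of 0.43 (rho 0.31, exact permutation p 0.406 and 0.564, adjusted 0.996 and 0.959), which became -0.81 without the 2 farthest spleens. Without spleen 508 the median slope was 0.92 for the 45 genes and 0.32 over all genes. In that fit 0 of the 45 genes passed, with 1 at an unadjusted limma p under 0.05.

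Cell type markers differed between the libraries too. The 8 plasma cell markers summed to 4227 FPKM in spleen 508, 2546 FPKM in lymph node 455 and 2219 FPKM in lymph node 508, against 216 to 370.1 FPKM in wild-type spleens. The sums were 145, 371 and 226 FPKM in spleens 343, 547 and unnumbered, and no marker of this list was at 0 in any library. Jchain, the joining chain of secreted antibodies, made up most of the sum of spleen 508 (3472 FPKM), and it was at 18.8 FPKM in spleen 547 against 132 to 220.0 FPKM in wild-type spleens. Without Jchain the sums were 755 FPKM in spleen 508, 352 FPKM in spleen 547, 660.4 and 557 FPKM in lymph nodes 455 and 508, and 84.3 to 212 FPKM in wild-type spleens. In spleen 547 the 7 markers other than Jchain each lay above every wild-type spleen, among them Tnfrsf17 (9.71 FPKM) and Irf4 (71.9 FPKM). In spleen 508 and in each lymph node 7 of the 8 markers did so, and in spleens 343 and unnumbered 1. The exception in spleen 508 and the lymph nodes was Cd38, which lay below every wild-type spleen. It was at 9.74 FPKM in spleen 508 and 7.35 and 10.1 FPKM in lymph nodes 455 and 508, against 19.4 to 80.3 FPKM in wild-type spleens. In spleen 547 Cd38 was at 80.7 FPKM, only just above wild-type spleen 1. Spleen 547 had the highest sum of the 6 markers of cycling cells, 488 FPKM against 33.0 to 76.8 FPKM in wild-type spleens, and the unnumbered spleen had 285 FPKM. The 6 markers of exocrine pancreas, another secretory tissue, summed to 280.3, 184 and 366 FPKM in wild-type spleen 1, spleen 343 and lymph node 455. They summed to 3.77 FPKM in spleen 508 and 3.87 FPKM in spleen 547. The part of these cells in the levels of the 45 genes was not tested, and in bulk RNA more cells of a type and more RNA per cell cannot be told apart.

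Other genes of the pathway came from a list of 61 genes. None was called in the genotype, lymph node or immunoglobulin fit at a limma FDR under 0.05. In the genotype fit 52 of the 57 tested had a positive log2 difference, with a median of 0.45, below that of the 45 genes. Of these, 3 had plckGAPDH spleens above wild-type spleens without overlap, as did 3.39% of all genes. They were named for that after their values were seen. Prkcsh, the beta subunit of the enzyme that trims glucose from glycoproteins, was at 13.4, 10.6 and 13.6 FPKM in the wild-type spleens, 24.8, 28.5, 33.5 and 32.7 FPKM in the plckGAPDH spleens, and 25.0 and 18.7 FPKM in the lymph nodes. Sec24d, a coat protein of vesicles that leave the ER, was at 6.88, 6.42 and 4.17 FPKM in the wild-type spleens, 9.45, 35.9, 19.3 and 13.5 FPKM in the plckGAPDH spleens, and 18.9 and 24.3 FPKM in the lymph nodes. The other was Sec31a, a coat protein too, at 22.9 to 30.1 FPKM in wild-type and 31.5 to 44.0 FPKM in plckGAPDH spleens.

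Xbp1, the factor whose RNA Ern1 splices, and some targets of Atf4 were also chosen after their values were seen. Xbp1 was at 53.7, 51.0 and 45.1 FPKM in the wild-type spleens, 33.6, 307, 131 and 58.4 FPKM in the plckGAPDH spleens, and 117 and 188 FPKM in the lymph nodes. It was highest in spleen 508 and lowest in spleen 343, as were most of the chaperones. Chac1, a target of Atf4 and Ddit3, was at 0.5, 0.150 and 0.190 FPKM in the wild-type spleens, 0.140, 10.7, 6.97 and 0.420 FPKM in the plckGAPDH spleens, and 4.91 and 8.45 FPKM in the lymph nodes. It exceeded 1 FPKM only in the 4 libraries in which the 45 genes stood high, although Ddit3 itself was near the wild-type level in 3 of these. Trib3, another target of Ddit3, was at 0.0400 to 0.110 FPKM in wild-type spleens, 0.02 to 2.24 FPKM in plckGAPDH spleens, and 2.98 and 5.32 FPKM in the lymph nodes. It was the only gene of the list higher in lymph nodes without overlap, beside 0.490% of all genes. Over all 9 libraries 10 of 60 genes of this list had a positive slope on immunoglobulin RNA past the limma threshold (0.772% of all genes), and without animal 508 it was 0 of 57.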

How the data were processed

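Per the labels' protocols, RNA was sequenced as stranded total RNA libraries. The authors deposited FPKM per gene, per the file headers. The submitters' processing notes name STAR 2.4.0a, featureCounts, Subread 1.5.0-p3, RSEM and Bowtie2 2.2.6 with mm10, with no role given for any of them. The column of 1 plckGAPDH spleen carries no animal number, and the animal number of 1 plckGAPDH spleen sample has no column. Whether the 2 are the same sample is not stated. No counts were used, so the tests planned for normalized values applied. Depth was estimated from low FPKM, of which 78.8% to 84.2% lay at whole fragments, against 18.2% to 20.2% by chance. The margin was 0.02 of a fragment plus the rounding of each FPKM value. Depth was chosen to make this excess largest, which the chance share does not allow for.

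limma 3.58.1 (R 4.3.3) with an intensity trend was fitted on log2(FPKM + 1) to genes with 1 FPKM in 3 spleens, or in 2 of the 9 libraries for lymph nodes. P-values were adjusted over all genes tested, and scripts were tested on simulated data. All 45 genes passed these filters. Alternatives were 3 scalings, no filter, a pseudocount of 0.1, sample weights, no trend and leaving out libraries. The genes and lists were chosen with earlier results of these data known. Genes listed by library are, by rule, the 2 most abundant of each role, the 6 with the smallest p of each fit, those called, and the sensors and factors. The ends of the proteins were not analysed here. Gene positions are GENCODE M21 (GRCm38).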

Additional observations from a re-analysis of the deposited data

Results flagged for a closer look

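Dixon's test at the 95% level over the 4 plckGAPDH spleens set apart 1 library for 4 of the 45 genes, where chance sets apart about 1 in 20 groups and 7.45% of all genes were set apart. Spleen 508 was far above the others for Ssr4 (446 FPKM, others 39.0 to 90.4), Edem2 (109 FPKM, others 12.4 to 20.5) and Fkbp11 (48.8 FPKM, others 0.860 to 2.45). The same spleen stood apart in summed immunoglobulin constant region FPKM (166920, others 6200 to 11035). Spleen 547 stood apart for Txndc5 (562 FPKM, others 74.4 to 145).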

How the results depend on the processing

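In the genotype comparison the number of the 45 genes called was 1 with sample quality weights (14.8% of all genes) and 0 to 1 when 1 library was left out (the 1 without spleen 343, with 2.16% of all genes). The number higher without overlap was 2 with scaling outside receptor and mitochondrial genes (1.14% of all genes) and 2 with median-of-ratios scaling (5.60%). It was 5 with scaling to protein-coding genes (7.30%, chosen after seeing the data) and 0 to 29 when 1 library was left out. The 29 came without spleen 343 (8.04% of all genes). Without wild-type spleen 1 the number was 6 (5.58%), and without the unnumbered spleen 3 (3.89%). The median log2 difference was 0.058 without spleens 508 and 547 together, also chosen after seeing the data, where Hsp90b1 was at -0.069. With 1 library left out, that median ran from 0.48 to 1.25. For lymph nodes the median was 1.37 with median-of-ratios scaling, where Atf6 was at 0.14. The number called was 0 to 1 with 1 spleen left out (the 1 without plckGAPDH spleen 508, with 0.177% of all genes). For the slope on immunoglobulin RNA the number called was 2 with median-of-ratios scaling (0.0488% of all genes), 2 without a filter (0.710%) and 1 with genotype as a second term (0.143%). It was 11 over all 9 libraries (3.10%) and 0 without both libraries of animal 508 (chosen after seeing the data). With 1 spleen left out it was 0 to 2 (the 2 without spleen 547, with 0.0731% of all genes). The median slope then ran from 0.36 to 0.92, the 0.92 without spleen 508, where the median over all genes was 0.32. The cause was not tested. Of the values of single genes under the alternatives, 315 kept their direction and side of the threshold, 15 passed it and 2 reversed. No paired analysis was possible because the groups share only 1 animal number, 508. Genes near 1 FPKM, such as Fkbp11 in spleen 343, rest on few fragments, since 1 fragment per kilobase is worth 0.0289 to 0.0421 FPKM.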
